A study of Rattus norvegicus with 35 samples.

Results

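The genes described here are targets of the nuclear receptor PPARα and enzymes of fatty acid oxidation, a set of 33 listed genes read in rat liver. A listed gene counted as measured where the platform annotation gave a probe set its symbol alone, and the probe set of highest mean score stood for the gene. By this rule 32 of the 33 were measured, among 14217 genes and 31042 probe sets of the series. The remaining gene, Acaa1a, is annotated only on a probe set it shares with Acaa1b, and that probe set is given separately.

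PPARα binds fatty acids and, paired with RXR, switches on genes for their uptake, activation and breakdown. In the liver this programme is used in fasting, when fatty acids are oxidised in mitochondria and part of the product leaves as ketone bodies, and it is strongly induced in rodents by drugs that activate the receptor. Peroxisomes shorten the very long and branched chains. Triazole fungicides block fungal sterol synthesis and are known in rodent liver mainly as inducers of other cytochromes P450, so the values show whether this lipid programme differed in exposed animals.

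The study exposed Wistar Han rats to a triazole in the feed, beginning at gestation day 6 and ending at postnatal day 92, and hybridised liver RNA of individual animals to Affymetrix rat arrays. The groups with values were 7 controls at 0 ppm, myclobutanil at 500 ppm (5 animals) and 2000 ppm (4 of 5 listed), propiconazole at 500 ppm (3 of 5 listed) and 2500 ppm (4), and triadimefon at 500 ppm (5) and 1800 ppm (4). The other 3 of 35 listed arrays hold no values. The sources used here give neither sex nor litter.

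Each value is the deposited score of a probe set, for which the sources used here state neither scale nor log base. A difference of scores is therefore given as such and not as a fold change, and scores of different genes are not set against each other. The hepatocyte markers were high on every array (albumin from 4.76 to 9.01). As a measure of RNA integrity, the 5′ score of GAPDH and of β-actin was subtracted from the 3′ score and the mean of the pair taken. This 3′–5′ difference ran from 0.5 to 2.12 in the controls, from 0.521 to 2.45 at myclobutanil 500 ppm and from 1.16 to 1.86 at triadimefon 1800 ppm, and no array of the other 4 groups was above 0.842. For GAPDH alone it was above 0.9 on 9 arrays: 4 controls (replicates 4 to 7), 2 of myclobutanil 500 ppm (replicates 1 and 5) and 3 of triadimefon 1800 ppm (replicates 2 to 4). Several members moved with it, as given below. In whole liver, fewer cells of a type and less RNA per cell cannot be told apart.

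No member passed the threshold in any comparison of a treated group with the controls. The threshold was an adjusted p of 0.05 in limma, over all probe sets. At triadimefon 1800 ppm 0 of 32 members passed, where 1.17% of all probe sets did, and 2 members had an unadjusted p under 0.05 (10.8% of all probe sets). At propiconazole 2500 ppm 0 members passed against 0.254% of all probe sets, with 3 at an unadjusted p under 0.05 (19.9%). At myclobutanil 2000 ppm 0 passed against 0.0644%, with 6 under 0.05 unadjusted (24.2%). At triadimefon 500 ppm 0 passed against 0.00966%, with 6 under 0.05 unadjusted (29.3%). At propiconazole 500 ppm and at myclobutanil 500 ppm 0 members passed and 0.00% of all probe sets did. In limma 2 members had an unadjusted p under 0.05 in each of these comparisons, where 9.23% and 4.13% of all probe sets had one.

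The members' median difference from the controls was 0.07 at triadimefon 1800 ppm, −0.06 at propiconazole 2500 ppm, −0.18 at myclobutanil 2000 ppm, −0.16 at triadimefon 500 ppm, −0.12 at propiconazole 500 ppm and 0.01 at myclobutanil 500 ppm. After quantile normalisation of the arrays these medians were −0.08, 0.08, 0.01, 0.05, 0.03 and 0.01, so the sign turned in 5 of the 6. A difference below 0 was found for 27 of 32 members at myclobutanil 2000 ppm, where 70.7% of all probe sets were below 0, and for 25 at triadimefon 500 ppm, where 76.1% were. It was found for 23 members at propiconazole 2500 ppm (71.8%), 21 at propiconazole 500 ppm (68.2%), 16 at myclobutanil 500 ppm (53.1%) and 10 at triadimefon 1800 ppm (34.3%). All 6 comparisons share the control animals. The map of differences shows the members by role.

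**Figure D1:**
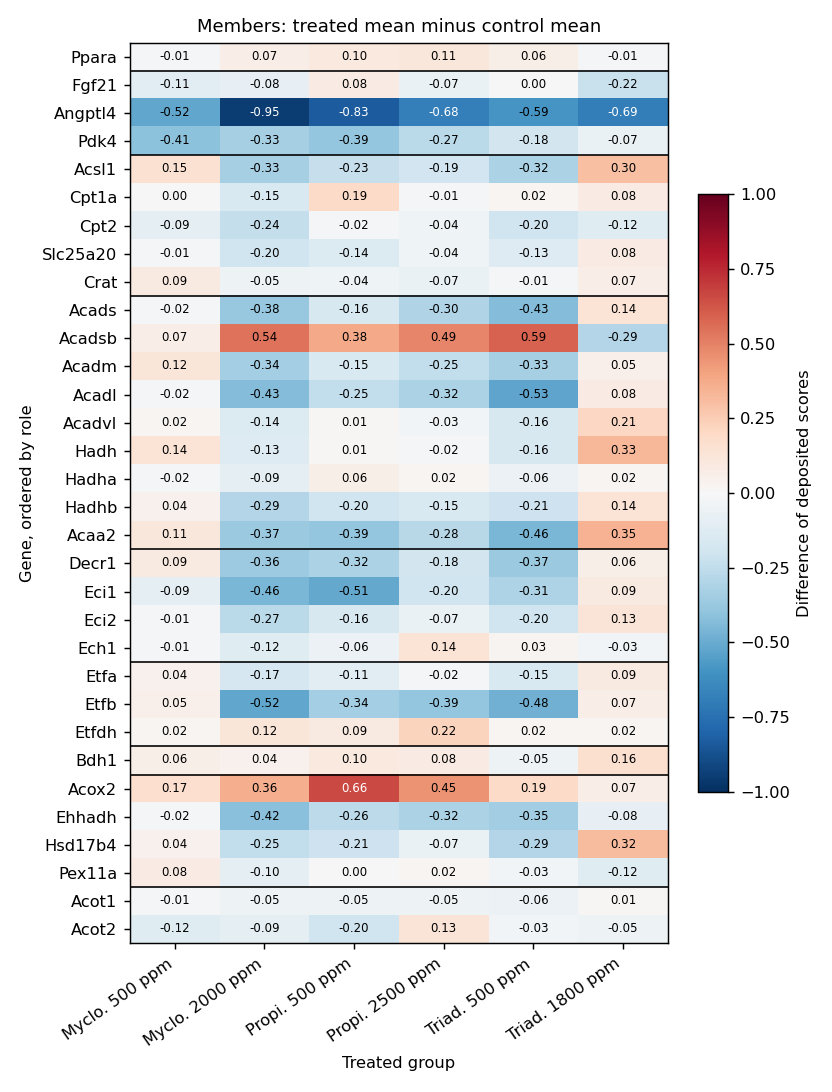
Difference of deposited scores, treated mean minus control mean (colour and printed value), for the 32 members (rows, grouped by role) in the 6 treated groups (columns). Angptl4 is below 0 in all 6 columns (−0.95 to −0.52) without passing the threshold in any, and Ehhadh and Cpt2 are also below 0 in all 6. Acox2 is above 0 in all 6 (0.07 to 0.66), without passing in any. Its scores were lower on the 9 arrays of high GAPDH 3′–5′ difference (1.0 to 1.57), 4 of them controls, than on the other 23 (1.64 to 2.81).

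The receptor itself gave low scores, all below the medians of the arrays, which ran from 0.00528 to 0.0585. Its small differences are therefore hard to read. Ppara ran from −0.24 through a median of −0.208 to −0.0682 in the controls, and on all 32 arrays it lay between −0.346 and −0.00095. Its widest difference from the controls was 0.11 ± 0.0504 (SE, adjusted p = 0.214) at propiconazole 2500 ppm, where the scores were −0.0374, −0.00095, −0.125 and −0.0573. 3 of these 4 animals lay above every control. The 9 arrays of high GAPDH 3′–5′ difference held Ppara scores from −0.346 to −0.136 and the other 23 from −0.173 to −0.00095. Adding the 3′–5′ difference to the model left 0.02 at propiconazole 2500 ppm.

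Angptl4, a secreted inhibitor of lipoprotein lipase and a sensitive PPARα target, showed the widest difference of all members at the high level of each compound. Its control scores ran from 2.04 through a median of 2.72 to 3.31. At myclobutanil 2000 ppm the 4 animals gave 1.71, 2.05, 1.51 and 1.94, and 3 of them lay below every control. The difference was −0.95 ± 0.226 (SE, 95% interval −1.41 to −0.48), with an adjusted p of 0.0704.

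At triadimefon 1800 ppm the Angptl4 scores were 2.01, 1.94, 2.67 and 1.61, again with 3 of 4 animals below every control (difference −0.69, adjusted p = 0.167). At propiconazole 2500 ppm they were 2.07, 2.30, 1.49 and 2.42, with 1 of 4 below every control (difference −0.68, adjusted p = 0.138). The groups overlapped in each case. At 500 ppm the difference was −0.83 with propiconazole (scores 1.70, 2.16 and 1.92, adjusted p = 0.536) and −0.59 with triadimefon (scores 2.24, 2.19, 1.84, 2.33 and 2.23, adjusted p = 0.0955). With myclobutanil at 500 ppm it was −0.52 (scores 2.86, 1.87, 1.96, 1.90 and 2.59, adjusted p = 1). Of these myclobutanil animals the 2 higher ones were the 2 with a high GAPDH 3′–5′ difference. Over all groups the Angptl4 median was 2.67 on the 9 arrays of high GAPDH difference, 4 of them controls, and 2.04 on the other 23.

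Over all alternatives run, Angptl4 at myclobutanil 2000 ppm stayed between −1.06 and −0.70 and its adjusted p between 0.0243 and 0.643. It passed under 4 of 22 alternatives, namely without control replicate 1 (adjusted p = 0.0499), without control replicate 2 (0.0429), without control replicate 3 (0.0243), and with limma's trend and robust settings (0.0485). Without control replicate 3 Acadsb passed there too (0.65, adjusted p = 0.0459). At triadimefon 1800 ppm it passed after quantile normalisation (−0.79, adjusted p = 0.0295) and after quantile normalisation with the 3′–5′ covariate (0.0273). Without the 9 arrays of high GAPDH 3′–5′ difference the 6 differences lay between −0.73 and −0.37. In that setting 3 controls remained, and 0 of the 6 passed.

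Pdk4, the kinase that shuts pyruvate out of oxidation, and Fgf21, a hepatic fasting hormone, completed the regulatory targets. Pdk4 ran from 1.67 through 1.97 to 2.19 in the controls, and 2 of 5 animals at myclobutanil 500 ppm lay far lower (2.06, 1.72, 1.05, 0.989 and 1.85). Its difference there was −0.41 ± 0.176 (SE, adjusted p = 1), and in all 6 groups its mean was below that of the controls (−0.41 to −0.07), although at triadimefon 500 ppm quantile normalisation gave 0.03. A second Pdk4 probe set, of lower score, gave −0.13 at myclobutanil 500 ppm and 0.20 at triadimefon 500 ppm, against −0.18 for the first.

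Fgf21 scores at triadimefon 1800 ppm were −0.121, −0.0201, −0.115 and −0.159, all below the controls, which ran from −0.0109 through 0.138 to 0.224. It was the 1 member of 32 whose arrays did not overlap the controls there (1.41% of all probe sets did not). The difference was −0.22 ± 0.0732 (SE, adjusted p = 0.173). These low scores lie near the medians of the arrays, which ran from 0.00528 to 0.0585.

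**Figure D2:**
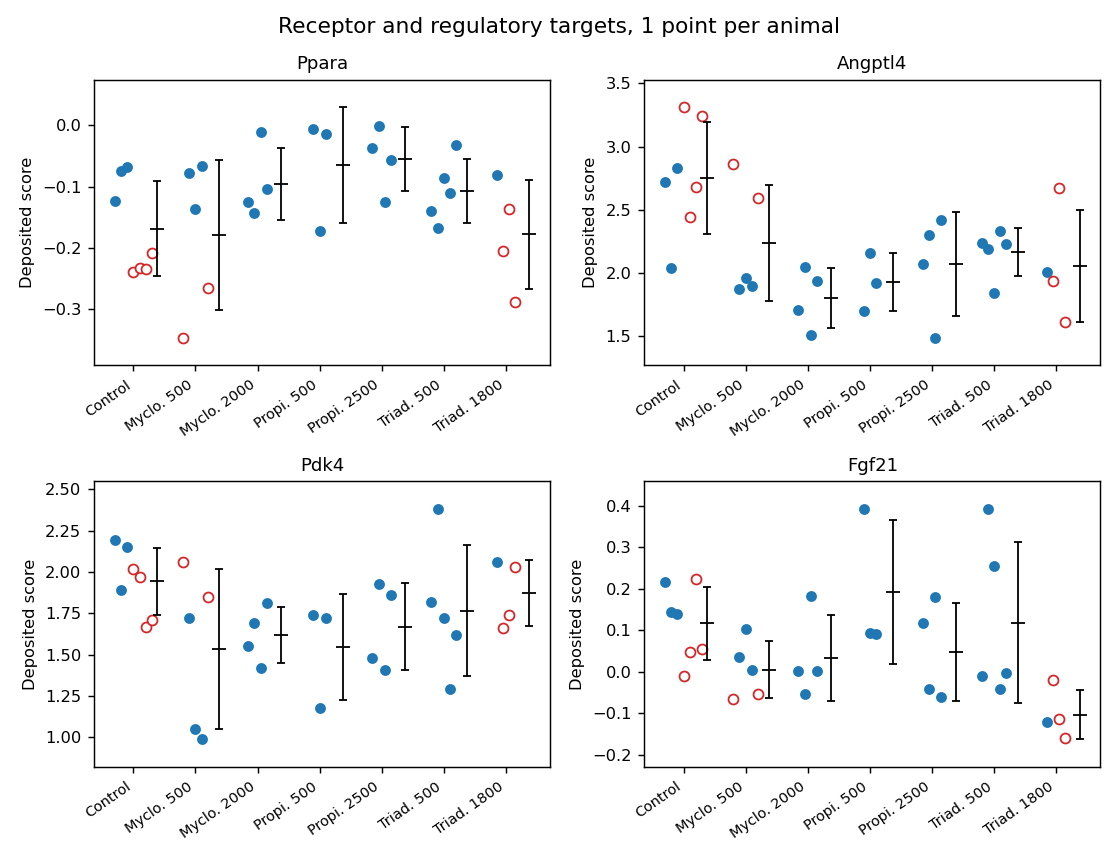
Deposited score (y axis) of Ppara, Angptl4, Pdk4 and Fgf21 in each animal by group (x axis, dose in ppm), with open red circles for the 9 arrays of high GAPDH 3′–5′ difference, filled blue circles for the others, and the group mean ± SD in black. Angptl4 is highest in the controls (2.04 to 3.31) and overlaps every treated group. Its median is 2.67 on the open circles and 2.04 on the filled ones, and Ppara is lower on the open circles.

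Activation and entry into mitochondria are served by the acyl-CoA synthetase Acsl1, the carnitine palmitoyltransferases Cpt1a and Cpt2, the carnitine carrier Slc25a20 and the carnitine acetyltransferase Crat. Their differences from the controls ran from −0.33 (Acsl1, myclobutanil 2000 ppm) to 0.30 (Acsl1, triadimefon 1800 ppm). In the controls the mean scores were 4.22 ± 0.45 (SD, n = 7) for Acsl1, 2.14 ± 0.202 for Cpt2, 1.68 ± 0.166 for Slc25a20 and 0.769 ± 0.226 for Crat. Cpt1a, the rate-limiting step of entry, ran from 1.76 through 2.26 to 2.90 in the controls, and its 6 differences lay between −0.15 and 0.19. Acsl1 was highest at myclobutanil 500 ppm replicate 1 (5.95) and triadimefon 1800 ppm replicate 1 (5.26), against 3.61 to 4.93 in the controls. The scores of the whole array also spread most widely on these arrays (SD 1.02 and 0.919, against 0.704 to 0.872 on the others).

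The 9 enzymes of the mitochondrial spiral include the acyl-CoA dehydrogenases (Acads, Acadsb, Acadm, Acadl and Acadvl for chains of rising length or branching), the trifunctional protein (Hadha and Hadhb), Hadh and the thiolase Acaa2. Their median difference from the controls was 0.14 at triadimefon 1800 ppm, −0.15 at propiconazole 2500 ppm and −0.29 at myclobutanil 2000 ppm. It was −0.21 at triadimefon 500 ppm, −0.15 at propiconazole 500 ppm and 0.04 at myclobutanil 500 ppm. None of the 9 passed the threshold. The control means were 3.61 ± 0.269 (SD, n = 7) for Acadm, 2.38 ± 0.136 for Hadha and 2.86 ± 0.201 for Hadhb, and the differences ran from −0.34 to 0.12, from −0.09 to 0.06 and from −0.29 to 0.14. They were 2.00 ± 0.113 for Acadvl, 3.53 ± 0.153 for Hadh and 4.02 ± 0.311 for Acaa2, with differences of −0.16 to 0.21, −0.16 to 0.33 and −0.46 to 0.35.

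Within this group Acads, Acadl and Acadsb were nearest to the threshold against the controls, at triadimefon 500 ppm. Acads, which acts on short chains, was 1.65, 1.59, 1.70, 1.56 and 1.47 there and 1.68 through 2.04 to 2.40 in the controls, with 4 of 5 animals below every control (−0.43 ± 0.145, SE, adjusted p = 0.0847). Acadl, which acts on long chains, gave −0.53 ± 0.199 (adjusted p = 0.101). Acadsb, which acts on short branched chains, went the other way, with 1.02, 0.614, 0.867, 1.17 and 0.821 against −0.174 through 0.051 to 1.02 in the controls (0.59 ± 0.202, adjusted p = 0.0863). These 3 genes passed together when control replicate 1 was left out (adjusted p = 0.0415 for Acads, 0.0493 for Acadl and 0.0307 for Acadsb) and when control replicate 3 was left out (0.0328, 0.047 and 0.0251). In these settings 12.1% and 14.4% of all probe sets passed. With the 3′–5′ covariate the differences were −0.06 for Acads, −0.08 for Acadl and 0.09 for Acadsb. Within animals numbered below 3000 they were −0.29, −0.47 and 0.33.

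Acadsb and Acox2, the peroxisomal oxidase of branched chains and bile acid side chains, separated arrays by RNA integrity. Acadsb lay between −0.231 and 0.0871 on the 9 arrays of high GAPDH 3′–5′ difference and between 0.28 and 1.17 on the other 23. Acox2 lay between 1.0 and 1.57 on the 9 and between 1.64 and 2.81 on the 23. Of all probe sets, 1.42% were lower on all 9 arrays than on the 23 and 1.64% higher. The controls themselves fell into these ranges, with Acadsb at 1.02, 0.344 and 0.997 in replicates 1 to 3 and between −0.174 and 0.051 in replicates 4 to 7. Acox2 gave the widest upward difference from the controls, 0.66 ± 0.264 (SE) at propiconazole 500 ppm (scores 2.30, 2.47 and 1.94, against 1.08 through 1.35 to 2.06, adjusted p = 0.536). Among animals numbered below 3000 it was 0.38, and over all alternatives run it lay between 0.22 and 0.81. Control replicates 1 to 3 gave Acox2 at 1.97, 2.06 and 2.03, and replicates 4 to 7 between 1.08 and 1.35.

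The auxiliary enzymes that prepare unsaturated chains (Decr1, Eci1, Eci2 and Ech1) had differences from −0.51 (Eci1, propiconazole 500 ppm) to 0.14 (Ech1, propiconazole 2500 ppm), and their control means were 3.29 ± 0.262 (SD, n = 7), 2.91 ± 0.364, 2.73 ± 0.16 and 2.27 ± 0.129. The electron carriers Etfa, Etfb and Etfdh ran from −0.52 (Etfb, myclobutanil 2000 ppm) to 0.22 (Etfdh, propiconazole 2500 ppm), with control means of 2.81 ± 0.117, 3.46 ± 0.356 and 2.15 ± 0.143. Bdh1, which interconverts the ketone bodies (control mean 2.45 ± 0.121), differed by −0.05 to 0.16. The thioesterases Acot1 (−0.382 ± 0.0574) and Acot2 (1.31 ± 0.265), near-identical copies that probe sets may not separate, differed by −0.20 to 0.13.

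Of the peroxisomal members, the bifunctional enzyme Ehhadh is a classical marker of PPARα activation in rodent liver. It ran from 2.46 through 2.71 to 3.10 in the controls and was 2.06, 2.08, 2.33 and 2.77 at myclobutanil 2000 ppm, with 3 of 4 animals below every control. The difference was −0.42 ± 0.165 (SE, adjusted p = 0.139). All 6 of its differences were below 0 (−0.42 to −0.02), also after quantile normalisation (−0.24 to −0.01). The Ehhadh median was 2.71 on the 9 arrays of high GAPDH 3′–5′ difference and 2.39 on the other 23. On those 9, myclobutanil 500 ppm gave 3.30 and 2.85, above the controls (2.71, 2.46, 2.50 and 2.71). Pex11a, a peroxisome proliferation factor that PPARα induces (control mean 0.923 ± 0.0989), differed by −0.12 to 0.08. Hsd17b4, the other multifunctional oxidation enzyme, differed by −0.29 to 0.32, and the shared Acaa1b and Acaa1a thiolase probe set by −0.24 to 0.31.

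Between levels of a compound, members passed the threshold for triadimefon and not for the others. At 1800 against 500 ppm 5 of 32 members passed (15.6%), fewer than the 24.8% of all probe sets that did. 3 of them were higher at 1800 ppm (22.3% of all probe sets were) and 2 were lower (2.46%). A difference above 0 was found for 23 members (78.3% of all probe sets), and the members' median was 0.21 against 0.06 over all probe sets. An unadjusted p under 0.05 was found for 10 members, where 41.1% of all probe sets had one. After quantile normalisation the members' median was −0.14.

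Acads rose to 2.36, 2.12, 2.01 and 2.18 at 1800 ppm from 1.65, 1.59, 1.70, 1.56 and 1.47 at 500 ppm, a difference of 0.57 ± 0.166 (SE, 95% interval 0.23 to 0.92, adjusted p = 0.0181). Acadl rose to 3.53, 3.13, 3.53 and 3.54 from 2.99, 2.73, 2.91, 2.82 and 2.63 (0.61 ± 0.228, interval 0.15 to 1.08, adjusted p = 0.0494). Hsd17b4 rose to 4.08, 3.39, 3.86 and 3.51 from 3.30, 2.95, 3.26, 3.05 and 2.97 (0.60 ± 0.216, interval 0.16 to 1.05, adjusted p = 0.0425). In each of the 3 every animal at 1800 ppm lay above every animal at 500 ppm. The share of all probe sets without overlap between these levels was not counted, so this separation is not read as particular to these genes. Of all probe sets, 22.3% passed as higher. After quantile normalisation Acads was 0.26 (adjusted p = 0.0452), and the other calls were lost, with Acadl at 0.14 (0.218) and Hsd17b4 at 0.06 (0.588). Of 20 alternatives Acads passed in 16, Hsd17b4 in 7 and Acadl in 5. The shared Acaa1b and Acaa1a probe set rose by 0.55 ± 0.199 (adjusted p = 0.0446).

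Acadsb fell to 0.331, −0.231, 0.0871 and −0.10 at 1800 ppm from 1.02, 0.614, 0.867, 1.17 and 0.821 at 500 ppm (−0.88 ± 0.232, interval −1.35 to −0.40, adjusted p = 0.012). Fgf21 fell from −0.00927, 0.392, 0.254, −0.0409 and −0.00417 to the scores given above (−0.22 ± 0.0783, adjusted p = 0.0402). There 3 of 4 animals lay below all at 500 ppm. Without 500 ppm replicate 2 or replicate 3, the animals at 0.392 and 0.254, it was −0.15 and −0.19. The call was then lost (adjusted p = 0.126 and 0.0953 in limma). Probe sets of lower score also fell for Cpt1a (−0.70, adjusted p = 0.0196), Pdk4 (−0.45, 0.0333), Hadha (−0.17, 0.0324) and Pex11a (−0.17, 0.0334), where the leading probe sets of these genes did not pass.

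**Figure D3:**
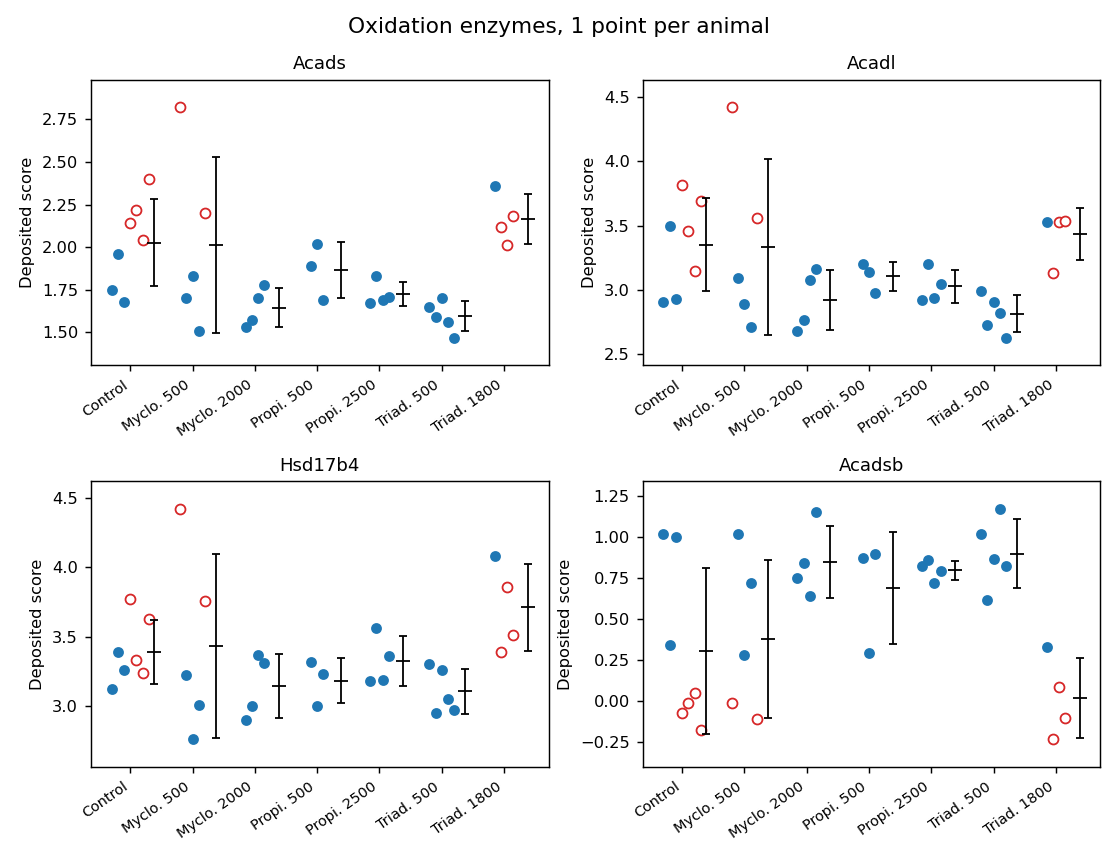
Deposited score (y axis) of Acads, Acadl, Hsd17b4 and Acadsb in each animal by group (x axis, dose in ppm), with open red circles for the 9 arrays of high GAPDH 3′–5′ difference, filled blue circles for the others, and the group mean ± SD in black. Acadsb lies at or below 0.0871 on every open circle and at or above 0.28 on every filled one.

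RNA integrity differed between the same 2 groups. The 3′–5′ difference was 0.469 to 0.577 at triadimefon 500 ppm and 1.16 to 1.86 at 1800 ppm, without overlap. When it entered the model 0 of 32 members passed in limma, where 0.283% of all probe sets did. The members' median was then 0.00, 22 of 32 differences lay nearer 0, and 13 had the opposite sign. The differences were 0.11 for Acads, 0.05 for Acadl, 0.19 for Hsd17b4, −0.26 for Acadsb and −0.16 for Fgf21. The share of RNA integrity in the level difference was not tested.

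Animal number differed too, since all animals at 500 ppm and replicate 1 at 1800 ppm have numbers below 3000 and the other 3 at 1800 ppm have higher ones. With the number series as a block 1 member passed, Acadvl (0.58, adjusted p = 0.0468), where 2.46% of all probe sets passed. Replicate 1 had a GAPDH difference of 0.729, not above 0.9. Its 3′–5′ difference with β-actin included was 1.17, close to that of replicate 3 (1.16). Replicate 1 held the highest scores of its group for many oxidation enzymes. Examples were Acaa2 (5.02 against 4.10, 4.34 and 4.01), Hadh (4.76 against 3.37, 3.93 and 3.37) and Acadvl (2.88 against 1.80, 2.10 and 2.08). The scores of its whole array also spread most widely in the group (SD 0.919, against 0.816, 0.847 and 0.84). Without the 3 arrays of high GAPDH difference this animal alone stood for 1800 ppm, and 18 members passed, all higher, where 23.5% of all probe sets passed. Against the 3 remaining controls 15 then passed, all higher, at a median of 0.42 (17.7% of all probe sets passed). Among animals numbered below 3000, again with this animal alone, 5 passed (7.93%). Among the arrays of high GAPDH difference (3 at 1800 ppm, 4 controls) 0 passed and the median was −0.08. Of single omissions, leaving out triadimefon 1800 ppm replicate 1, 3 or 4 or triadimefon 500 ppm replicate 2 or 3 left 2 members past the threshold between the levels, and triadimefon 500 ppm replicate 4 or 5 left 3.

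**Figure D4:**
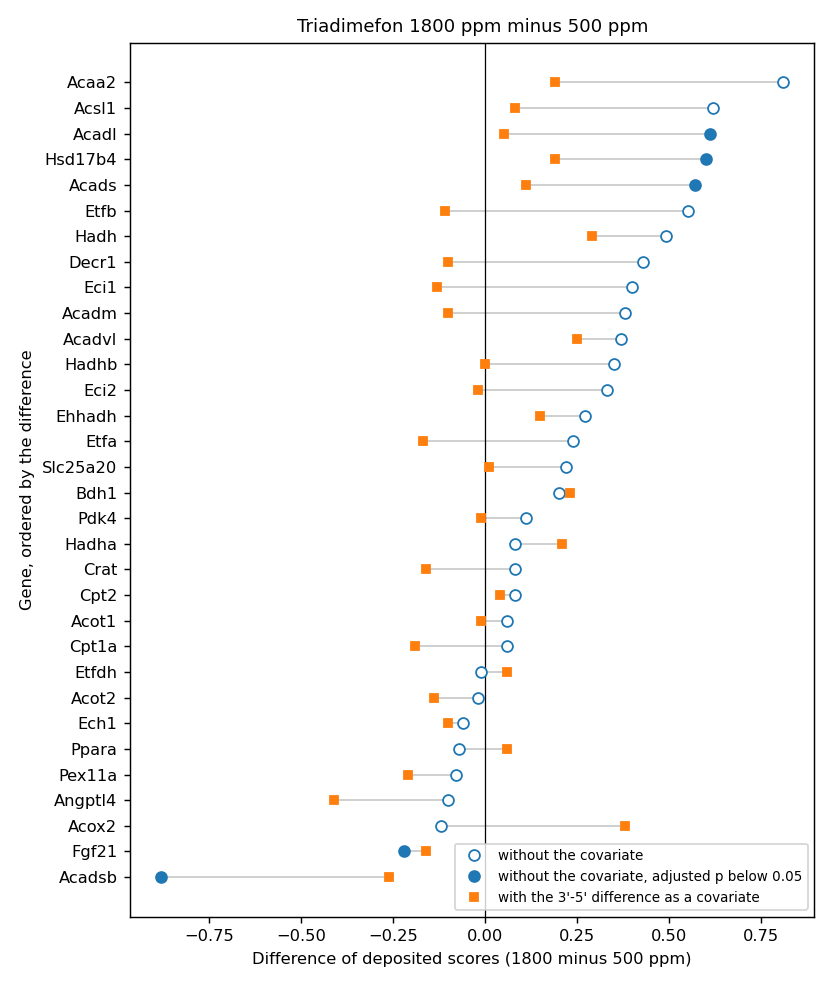
Difference of deposited scores between triadimefon 1800 and 500 ppm (x axis) for the 32 members (y axis), fitted without a covariate (circles, filled where the adjusted p was below 0.05) and with the 3′–5′ covariate (orange squares). The 5 filled circles lie between −0.88 and 0.61 and their squares between −0.26 and 0.19.

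For propiconazole (2500 against 500 ppm) and myclobutanil (2000 against 500 ppm) 0 of 32 members and 0.00% of all probe sets passed in limma. An unadjusted p under 0.05 was found for 1 member with propiconazole (1.18% of all probe sets), Acot2 (0.33, adjusted p = 1). With myclobutanil it was found for 4 (11.0%), with the smallest p for Pex11a (−0.18, adjusted p = 0.447). The members' medians were 0.01 and −0.19.

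The 3 compounds share a triazole ring, to which triadimefon adds a ketone, propiconazole a cyclic ketal and myclobutanil a nitrile. They can be compared at 500 ppm, in 3 pairs, and 0 of 32 members passed in each pair, as did 0.00% of all probe sets. Between triadimefon and myclobutanil 5 members had an unadjusted p under 0.05 in limma (19.1% of all probe sets). The smallest p was that of Acads (difference −0.42, 95% interval −0.74 to −0.10, adjusted p = 0.237), and 2 of the 5 animals on myclobutanil had a high GAPDH 3′–5′ difference. Between triadimefon and propiconazole 0 members did (2.49%), and Acox2 differed by −0.47 (interval −1.04 to 0.10). Between myclobutanil and propiconazole 1 did (4.29%), Fgf21 (−0.19, interval −0.36 to −0.01, adjusted p = 0.855). For Angptl4 the intervals were −0.54 to 0.40, −0.30 to 0.78 and −0.23 to 0.85, so differences of that size between compounds are not excluded. The high levels differ in dose between compounds and were not compared.

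PPARα with RXR binds a direct repeat of the hexamer AGGTCA with 1 base between the copies. The promoter windows of RefSeq (rat build GRCr8, 250 bases before to 50 after the start) hold 28 of the 32 measured members. A direct repeat with at most 1 mismatch in each hexamer, on either strand, was found in 4 of these 28 (14.3%) and in 2.26% of 33469 promoters. A perfect AGGTCA on either strand, which can be part of such a repeat, was found in 5 of the 28 (17.9%) and in 16.2% of all. The 3 repeats that lie before the start are shown as examples of the element, with its 13 bases in capitals on the gene's own strand.
Acadvl (chr10:55236706-55236747, minus strand): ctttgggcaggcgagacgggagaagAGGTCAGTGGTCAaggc
Crat (chr3:34087285-34087347, minus strand): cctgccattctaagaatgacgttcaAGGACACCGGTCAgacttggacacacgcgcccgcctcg
Etfa (chr8:64788082-64788144, minus strand): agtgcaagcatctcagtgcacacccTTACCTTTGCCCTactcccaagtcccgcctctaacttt
The Acadvl element has 1 mismatch in all and ends 5 bases before the start, and those of Crat and Etfa have 2 mismatches each. In Etfa it reads on the opposite strand, as AGGGCAAAGGTAA. The repeat in Slc25a20 lies after the start. From the controls, the 3 genes shown differed by −0.16 to 0.21 (Acadvl), −0.07 to 0.09 (Crat) and −0.17 to 0.09 (Etfa), and none passed. A match in these letters is a description and does not show binding.

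Of 102 further genes of the pathway, chosen as transporters, synthetases, ω-hydroxylases, peroxins, coregulators and lipid droplet proteins, 92 were measured. At propiconazole 2500 ppm 2 of the 92 passed (2.17%), both higher, where 0.254% of all probe sets passed. At triadimefon 1800 ppm 2 passed, both higher, where 1.17% did. None passed in the other 4 comparisons with the controls, where 24 (myclobutanil 2000 ppm), 27 (triadimefon 500 ppm), 8 (propiconazole 500 ppm) and 2 (myclobutanil 500 ppm) had an unadjusted p under 0.05 in limma. These are 26.1%, 29.3%, 8.70% and 2.17% of the 92, against 24.2%, 29.3%, 9.23% and 4.13% of all probe sets.

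Cidea, a lipid droplet protein that rises with fat storage, passed in both. It was 2.01, 1.23, 1.32 and 1.35 at propiconazole 2500 ppm and 0.561 through 0.625 to 0.708 in the controls (0.86 ± 0.157, SE, adjusted p = 0.0161). At triadimefon 1800 ppm it was 0.939, 1.61, 1.19 and 1.73 (0.74 ± 0.157, adjusted p = 0.0116). At myclobutanil 2000 ppm it was 1.12, 1.08, 1.32 and 0.878, also above every control, with an adjusted p of 0.106. The call at propiconazole was lost without replicate 1 (0.68, adjusted p = 0.101) or replicate 4 (0.90, 0.0641) of that group, among animals numbered below 3000 (0.87, 0.0756) and without the arrays of high GAPDH 3′–5′ difference (0.86, 0.125). The call at triadimefon was lost without replicate 2 (0.66, 0.0564) or replicate 4 (0.62, 0.0807), and the difference was 0.32 without the arrays of high GAPDH 3′–5′ difference (1 animal at 1800 ppm), 0.33 among animals numbered below 3000 and 0.86 among those above.

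Cyp4a8 and Cyp4a1 are ω-hydroxylases of the Cyp4a family, which oxidise the far end of fatty acids. Cyp4a1 is a textbook PPARα target. It passed in none of the 6 comparisons with the controls, where its differences lay between −0.79 and −0.19. Under some alternatives it passed at myclobutanil 2000 ppm, as given below. Cyp4a8 rose at propiconazole 2500 ppm, to 2.03, 1.87, 1.25 and 1.83 from 0.508 through 0.653 to 1.03 in the controls (1.03 ± 0.191, SE, adjusted p = 0.0163). The adjusted p was 0.0963, 0.0598 and 0.105 without replicate 1, 2 or 4 of that group and 0.0805 with the 3′–5′ covariate (difference 0.95). It was 0.0945 when the number series entered as a block (0.86) and 0.0956 without the arrays of high GAPDH 3′–5′ difference (0.97). Cyp4a1 was 2.34, 2.10, 1.95 and 2.11 in the same animals and 2.50 through 2.80 to 3.02 in the controls, a difference of −0.67 with an adjusted p of 0.0963. At myclobutanil 2000 ppm Cyp4a1 was 1.88, 1.86, 1.94 and 2.35 (−0.79 ± 0.191, adjusted p = 0.0705). There Cyp4a1 passed in limma under 3 of 22 alternatives. These were only the 2 groups in the fit (adjusted p = 0.0383), leaving out control replicate 1 (0.05 when rounded) and leaving out control replicate 3 (0.0225). In the animals at myclobutanil 2000 ppm Cyp4a8 was 1.43, 1.70, 1.24 and 1.03 (0.64, adjusted p = 0.0922). Its other differences from the controls were 0.58 at triadimefon 1800 ppm and, at 500 ppm, 0.71 with triadimefon, 0.39 with propiconazole and 0.17 with myclobutanil.

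Acsl3, an acyl-CoA synthetase of lipid droplets, rose at triadimefon 1800 ppm, to 0.601, 0.884, 0.842 and 1.06 from 0.197 through 0.433 to 0.501 in the controls (0.44 ± 0.0784, SE, adjusted p = 0.00216). Without the 9 arrays of high GAPDH 3′–5′ difference it was 0.26 (adjusted p = 0.186), with 1 animal at 1800 ppm, and 0.22 and 0.49 among animals numbered below and above 3000. The fatty acid transporter Cd36 at triadimefon 500 ppm (0.457, 0.569, 0.359, 0.424 and 0.661, against −0.344 through −0.0783 to 0.342 in the controls) had an adjusted p of 0.0503. It passed in 5 of 23 alternatives: without control replicate 1 (0.58, adjusted p = 0.0185) or control replicate 3 (0.57, 0.0124), after quantile normalisation (0.57, 0.0319), with the mean over probe sets (0.52, 0.0437) and with trend and robust settings (0.52, 0.0386). Over all 23 the Cd36 difference lay between 0.25 and 0.58 and its adjusted p in limma between 0.0124 and 0.702. Its 4 lowest control scores were those of the 4 controls with a high GAPDH difference. The lipase Pnpla2 at propiconazole 500 ppm (0.25, adjusted p = 0.536) and the brain-type Cpt1c at myclobutanil 500 ppm (0.09, adjusted p = 1) had the smallest p there. Between the triadimefon levels 27 of the 92 passed (24.8% of all probe sets did). The smallest p were those of the peroxin Pex6 (0.42), Acsl3 (0.44), the dehydrogenase Acad8 (0.37) and the receptor Rxrb (0.29), all higher at 1800 ppm. With the 3′–5′ covariate none of these 4 passed (0.28, 0.32, 0.27 and 0.08, adjusted p = 0.061, 0.106, 0.173 and 0.29).

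**Figure D5:**
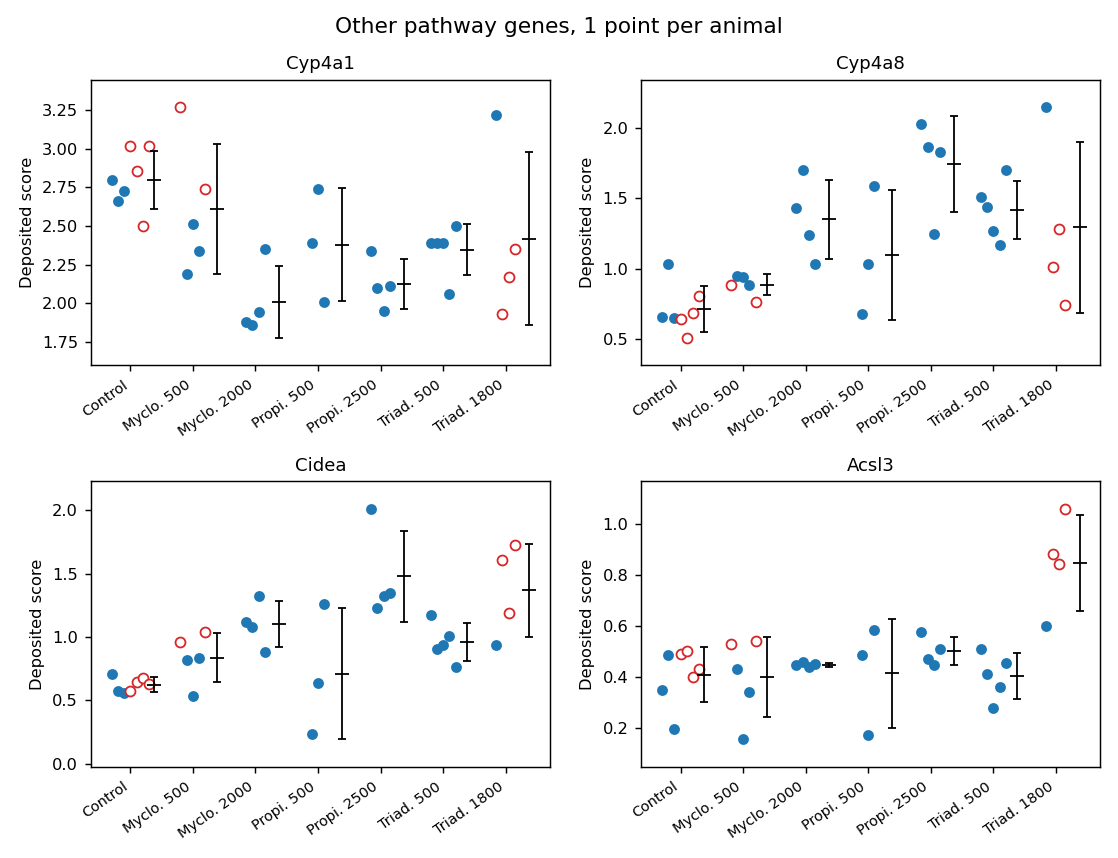
Deposited score (y axis) of Cyp4a1, Cyp4a8, Cidea and Acsl3 in each animal by group (x axis, dose in ppm), with open red circles for the 9 arrays of high GAPDH 3′–5′ difference, filled blue circles for the others, and the group mean ± SD in black. At propiconazole 2500 ppm Cyp4a8 runs from 1.25 to 2.03 (controls 0.508 to 1.03) and Cyp4a1 from 1.95 to 2.34 (controls 2.50 to 3.02).

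The summed scores of all lists of other cell types had their highest group medians at triadimefon 1800 ppm, except that of testis. The summed score of 6 Kupffer cell markers ran from 7.12 to 9.45 there and from 4.93 to 8.27 in the controls. That of 6 stellate cell markers ran from 4.48 to 5.32 against 3.14 to 4.26. That of 3 biliary markers ran from 0.508 to 1.23 against 0.0862 to 0.425. That of 4 endothelial markers ran from 5.46 to 6.43 against 4.67 to 5.91, and that of 9 hepatocyte markers from 37.5 to 48.4 against 33.8 to 44.5. That of 5 adipocyte markers ran from −0.445 to 0.177 against −0.901 to −0.117, where Adipoq, Lep and Plin1 were below 0 on every array, Fabp4 reached 0.0283 and Cfd 0.958. The summed score of 3 skeletal muscle markers, each below 0 on every array, ran from −1.07 to −0.915 against −1.12 to −0.963. Among the biliary markers Krt19 and Krt7 reached only 0.0368 and 0.0528 on any array, and Epcam ran from 0.22 to 1.37. The part of these cell markers in the members' differences was not tested.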

How the data were processed

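The authors deposited 1 score per probe set and array. Per the labels' protocols the arrays were Affymetrix Rat Genome arrays of single animals. The sources used here do not say how the scores were summarised or normalised. Titles and the labelling protocol name liver and the extraction text names testis, and the samples were taken as liver.

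The 57 Affymetrix control probe sets were left out, which kept 31042. Scores were used unchanged, although limma assumes values on a log2-like scale. All 7 groups entered 1 model (limma 3.58.1 in R 4.3.3, lmFit and eBayes at their defaults, 25 residual degrees of freedom), with 12 two-sided comparisons, each adjusted by Benjamini-Hochberg over all probe sets. The fit was tested on simulated scores. The design text calls the samples biological replicates.

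The members, the other pathway genes, the marker lists and the tests were chosen with earlier results of these data known. Named were Ppara, each member past the threshold and the 2 members of smallest p in each comparison with the controls. Of the other pathway genes, up to 4 past the threshold were named, or else the 1 of smallest p. Other genes named beside them (Acsl1, Cpt1a, Acadvl, Hadh and Acaa2 among the members) were chosen after their values were seen. The number of arrays limits the precision. Arrays within a group were never identical (correlations of 0.933 to 0.996). The alternatives, whose effect is given in the closing section, were quantile normalisation, leaving out the 40% of probe sets with the lowest scores, a mean over probe sets, the number series as a block or alone, only the groups compared, trend and robust settings, the 3′–5′ covariate, arrays of high or low 3′–5′ difference, a replicate block and single omissions. Quantile normalisation with the covariate, and only the arrays of high 3′–5′ difference, were added after seeing the data.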

Additional observations from a re-analysis of the deposited data

Results flagged for a closer look

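Of 60 sets of scores tested, each of a named member in a group of 4 to 7 animals, 2 had an animal far from the others of its group, where chance gives about 1 in 20. Acadl at triadimefon 1800 ppm replicate 2 was 3.13, against 3.53, 3.53 and 3.54. Angptl4 at triadimefon 500 ppm replicate 3 was 1.84, against 2.19 to 2.33.

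The 2 levels of triadimefon differed from each other in 5 of 32 members (15.6%), by the test of that difference, which 24.8% of all probe sets passed. The difference, 1800 minus 500 ppm, was −0.88 for Acadsb, −0.22 for Fgf21, 0.57 for Acads, 0.61 for Acadl and 0.60 for Hsd17b4. With the 3′–5′ covariate 0 members passed in limma, and these differences lay between −0.26 and 0.19.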

How the results depend on the processing

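The count of members past the threshold stayed at 0 under every alternative run for propiconazole at both levels and myclobutanil 500 ppm against the controls, for the levels of propiconazole and of myclobutanil, and for the 3 pairs of compounds. For triadimefon 1800 ppm against the controls it was 1 after quantile normalisation and 1 when the covariate was added to that (Angptl4, lower, in each), 5 among animals numbered below 3000 (7.93% of all probe sets) and 15 on leaving out the 9 arrays over the GAPDH limit (17.7%). For myclobutanil 2000 ppm against the controls it was 1 with trend and robust settings. Between the triadimefon levels it was 1 with the number series as a block (2.46%), 3 with trend and robust settings, 0 with the 3′–5′ covariate, 0 when quantile normalisation was added to it, and 18 on leaving out the 9 arrays (23.5%). Single omissions gave 0 to 2 for myclobutanil 2000 ppm, 0 to 3 for triadimefon 500 ppm, 0 for the other 4 comparisons with the controls and 2 to 6 between the triadimefon levels. Where no cause is shown by the setting itself, the cause was not tested.

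Among named genes, Pdk4 at myclobutanil 500 ppm reversed to 0.11 on those 9 arrays alone. With a replicate block 4 members passed between the triadimefon levels and 0 in the other comparisons, and at propiconazole 2500 ppm Cidea (0.89) and Cyp4a8 (1.06) had an adjusted p of 0.115 each. Same-numbered animals of different groups did not deviate together (median correlation −0.0101 over 76 pairs, 24 of them over 0.1), so the numbers do not pair them.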

Other observations

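Transcripts of sperm cells, which liver is not known to make, varied between the arrays. Prm1, a protamine of sperm chromatin, was 3.15 at triadimefon 1800 ppm replicate 2, 2.68 and 2.42 at myclobutanil 500 ppm replicates 5 and 2, 2.51 at myclobutanil 2000 ppm replicate 5 and 2.15 at triadimefon 500 ppm replicate 3. On control replicates 5 and 6 and triadimefon 1800 ppm replicates 1, 3 and 4 it was between −0.329 and −0.237, and on the other arrays between 0.526 and 1.71. At triadimefon 1800 ppm replicate 2 Tnp1, a transition protein of sperm chromatin, was 1.37 and Odf1, of the sperm tail, 0.812. Tnp1 and Odf1 were below 0 on the other 3 arrays of that group. Both were higher at myclobutanil 2000 ppm replicate 5 (1.44 and 1.34). Of the other testis markers, Acrv1 was below 0 on every array (−0.43 to −0.229). Prm2 ran from 0.232 to 0.63 and Insl3 from −0.0297 to 0.186. Tnp2, Ldhc, Cyp17a1 and Sycp3 reached 0.756, 0.535, 0.606 and 0.535.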
